A study of Saccharomyces cerevisiae with 18 samples.

Results

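The comparison described here sets o-nitrophenol against m-nitrophenol in budding yeast, Saccharomyces cerevisiae. It rests on the 3 arrays titled o-nitrophenol and the 3 titled m-nitrophenol, which are 6 of the 9 arrays and 12 of the 18 scan columns of the series. Arrays were chosen by sample title alone. The readout was the difference between the mean log2 ratios of both isomers, taken for each of 5096 genes tested out of 5365 named genes on the array.

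Cultures of strain S288C grew at 25 °C in YPD, the standard rich medium with glucose, and were treated in exponential growth at an optical density of 1. The o-nitrophenol cultures received 3 mM and the m-nitrophenol cultures 5 mM, both for 2 h, so isomer and dose cannot be told apart in any difference below. On each array polyA RNA from after treatment carried Cy5 and RNA from before treatment carried Cy3, and the labels describe the 3 arrays of an isomer as independent biological samples. There was no culture held for 2 h without a nitrophenol and no array with the dyes exchanged. The 3 arrays of p-nitrophenol (1.5 mM, 2 h) entered the estimate of the spread between arrays, and their means of the called genes are given once, at the end. That the ratios run as treated over before treatment is likely from the channels and dyes in the labels but is not stated with the values; turned, every higher would read lower, and the top and bottom gene lists below would swap.

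The isomers share a phenol ring with 1 nitro group and differ in where that group sits relative to the hydroxyl group, beside it in the o-isomer and one carbon further along the ring in the m-isomer. Yeast meets many chemicals with an environmental stress response, in which the factors Msn2 and Msn4 induce protective genes while genes of the protein synthesis machinery are turned down. More specialised programmes sit beside it: Pdr1 and Pdr3 control drug efflux pumps, Yap1 antioxidant genes, Hsf1 chaperones, and Aft1 the uptake of iron. Pyruvate decarboxylase, the enzyme that leads pyruvate into ethanol in fermenting yeast, is encoded by PDC1 and by PDC5, a gene known for low use while PDC1 is active.

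The arrays numbered 1 stood apart in both groups. The m-nitrophenol array 1 held values for 1970 genes, against 5333 and 5343 on arrays 2 and 3, and the o-nitrophenol array 1 held 3797, against 5316 and 5155. Across genes, Pearson's r was 0.839 between m arrays 2 and 3 and 0.875 between o arrays 2 and 3. With array 1 of the same group it was 0.591 and 0.61 for m arrays 2 and 3 and 0.502 and 0.581 for o arrays 2 and 3. Counts of called genes, over all genes and in each list, are therefore also given for a fit without the 3 arrays numbered 1 (p-nitrophenol included), called the reduced fit from here on. Leaving out arrays that stood apart narrows the spread, and 2 arrays per group remain. SEs and adjusted p-values of the reduced fit are thus likely to understate the spread between cultures. Passing in it carries less weight than a call over all arrays. A gene measured on neither o array 1 nor m array 1 has the same difference in both fits. Only its SE and p-value change, through the estimate of the spread. Of the genes tested, 1809 had values on all 6 arrays. Medians of a list or of all genes on an array cover only genes with a value there. For all genes tested these were 3762 on o array 1 and 1963 on m array 1.

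21 genes were higher in o-nitrophenol than in m-nitrophenol, 0.412% of the genes tested, and 16 were lower, 0.314%. The test was limma's moderated test on log2 ratios with Benjamini-Hochberg adjustment over all 5096 genes and a threshold of 0.05, two-sided, and at an unadjusted p under 0.05 the counts were 382 and 517. Differences of these 37 genes ranged in size from 2.10 to 6.85 on the log2 scale, so all were at least 2-fold. No o array overlapped any m array for any of the 37, while over all genes tested 14.1% had o arrays wholly above and 24.4% wholly below the m arrays. The 37 were called on these same arrays, so their lack of overlap follows largely from the call and is no separate support. When arrays were centred on their medians, 30 genes were higher and 11 lower.

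In the reduced fit 464 genes were higher in o-nitrophenol (9.11%) and 584 lower (11.5%), and all 37 genes were among them. Counts of list members in the reduced fit, here and below, are to be read against these shares. Leaving out single arrays moved the counts between 2 and 143 for higher and between 0 and 150 for lower genes: without o array 1 they were 143 and 150, without m array 1 they were 62 and 24, and without o array 2, o array 3, m array 2 or m array 3 at most 3 genes were higher and 2 lower. The p-nitrophenol arrays moved them as well, to 86 and 69 without p array 1, to 11 and 1 without p array 2 and to 10 and 1 without p array 3; in the latter fits 25 and 26 of the 37 genes lost the call. Of the 37, PDC5 and FSH1 passed in every fit that left out 1 array, and the other 35 lost the call in at least 1 of them. No gene of the 37 changed sign in an alternative that gave it a value, which only 31 had with high-power or low-power scans alone and 22 among genes on all 6 arrays.

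Most of the higher genes stood above their level before treatment in o-nitrophenol and near it in m-nitrophenol. Of the 21, 19 were above 0 on every o array that measured them, and 13 had an m mean between -1 and 1. The 16 lower genes showed a change of sign: all 16 were above 0 on every m array with a value, and 13 were below 0 on every o array with a value. The plot of the 37 genes by array shows each of these values.

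**Figure D1:**
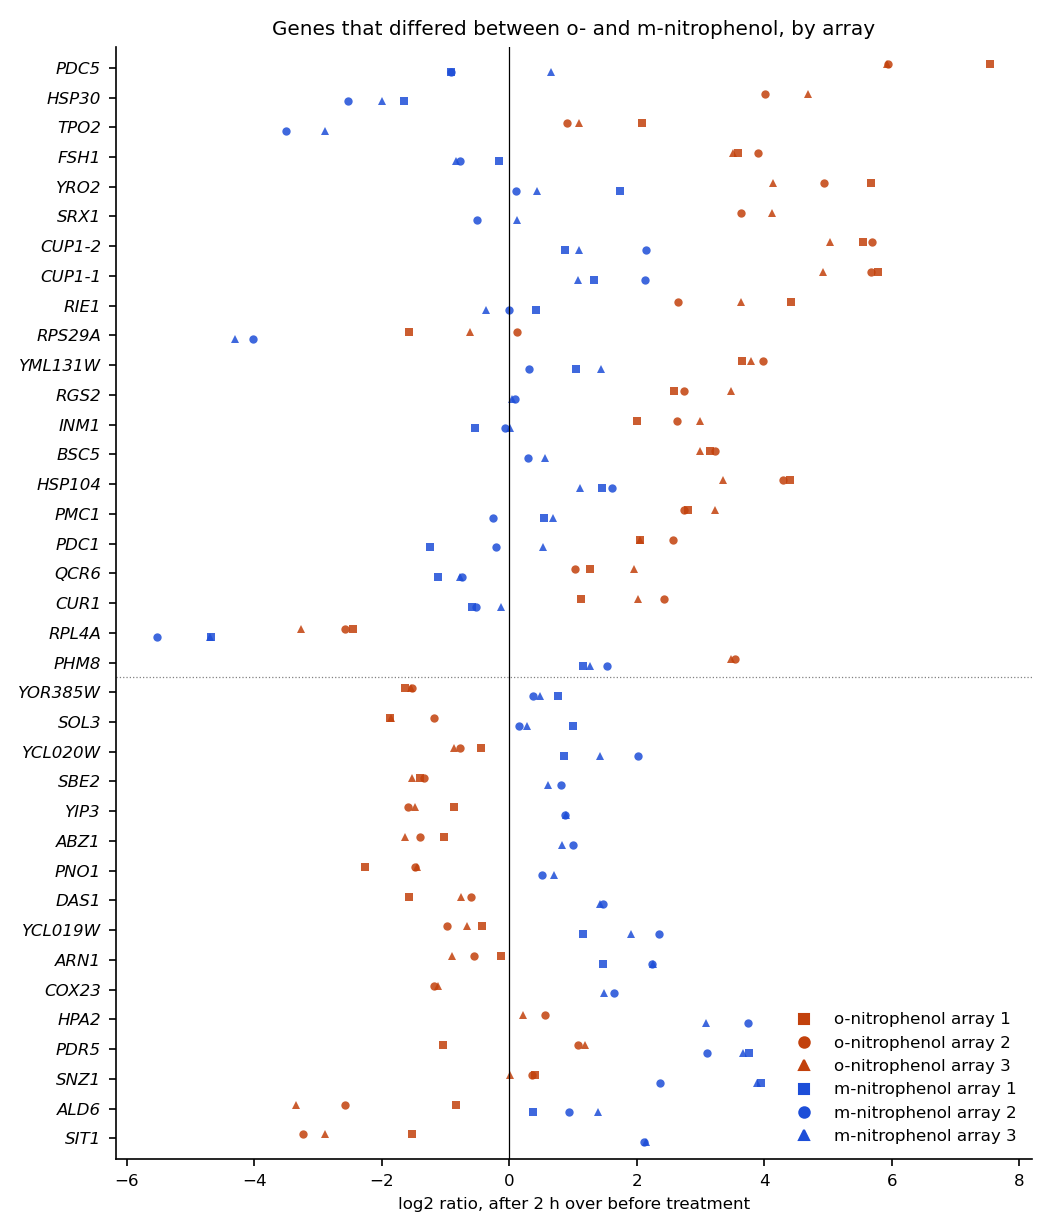
Log2 ratio (x axis, after 2 h over before treatment) of the 37 genes that differed between the isomers, ordered by their difference, with o-nitrophenol arrays in orange and m-nitrophenol arrays in blue and the replicate number as the symbol. Orange and blue points do not overlap in any gene, and the 16 genes under the dotted line have all their blue points above 0.

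The largest difference was that of PDC5. Its log2 ratios were 7.54, 5.94 and 5.92 on o arrays 1 to 3, and -0.92, -0.90 and 0.66 on the m arrays. All o arrays lay far above all m arrays, and the m arrays straddled the level before treatment. The difference was 6.85 ± 0.63 (SE, 3 arrays each), a 116-fold higher ratio (limma adjusted p = 0.00225), with a 95% interval of 5.45 to 8.26. PDC1 moved the same way: its ratios of 2.05, 2.57 and 2.04 in o-nitrophenol stood against -1.24, -0.21 and 0.53 in m-nitrophenol. That difference was 2.53 ± 0.46, or 5.76-fold (limma adjusted p = 0.043). PDC5 and PDC1 are close in sequence, and how far the spots of one bind RNA of the other was not tested.

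Genes of the plasma membrane and of weak acid tolerance held several of the largest differences. HSP30, whose small membrane protein restrains the proton pump Pma1 under stress, had ratios of 4.0 and 4.69 on o arrays 2 and 3 and no value on o array 1. On the m arrays it stood at -1.65, -2.53 and -2.0. It was thus above its level before treatment in one isomer and below it in the other on every array with a value, and the difference was 6.40 ± 0.93 (2 against 3 arrays), or 84.7-fold (limma adjusted p = 0.0242). YRO2, a member of the same protein family, was at 5.67, 4.93 and 4.14 in o-nitrophenol and at 1.74, 0.10 and 0.44 in m-nitrophenol. Both groups were above 0, and the o arrays were higher by 4.15 ± 0.71, or 17.8-fold (limma adjusted p = 0.0387). TPO2, which exports polyamines from the cell, was at 2.08, 0.90 and 1.10 in o-nitrophenol and at -3.50 and -2.89 on m arrays 2 and 3, with no value on m array 1. Here too the sign differed between the isomers, by 4.55 ± 0.80 (3 against 2 arrays, limma adjusted p = 0.0433).

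Of the 27 genes tested of the polyamine, weak acid and ion list, these 3 were higher and 0 were lower. The list's median difference was 0.51 above that of all genes tested, which was -0.13. The reduced fit had 7 higher and 5 lower (25.9% and 18.5%, against 9.11% and 11.5% of all genes). TPO3, the neighbouring family member of TPO2, had ratios of 2.81, 0.58 and 0.79 in o-nitrophenol and of -2.24 and -2.34 on m arrays 2 and 3, and its difference of 3.69 ± 0.77 did not pass over all arrays (limma adjusted p = 0.0582) but passed in the reduced fit. There ENA2, ENA5 (sodium pumps), TPO5 and OAZ1 (the antizyme that limits polyamine synthesis) were lower, with differences of -1.30 ± 0.34, -1.47 ± 0.34, -1.33 ± 0.37 and -1.41 ± 0.36.

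FSH1, a serine hydrolase, was the other gene that passed in every fit leaving out 1 array. It stood at 3.59, 3.90 and 3.50 in o-nitrophenol and at -0.16, -0.78 and -0.83 in m-nitrophenol. Arrays within each group lay within 1 log2 unit of each other, and the groups differed by 4.25 ± 0.41, or 19.1-fold (limma adjusted p = 0.00225).

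The CUP1 genes were above their level before treatment in both isomers and higher in o-nitrophenol. CUP1-1, which encodes the main copper-binding metallothionein, was at 5.79, 5.68 and 4.92 on the o arrays and at 1.33, 2.12 and 1.07 on the m arrays. CUP1-2 read nearly the same, with 5.55, 5.69 and 5.03 against 0.87, 2.14 and 1.10. The differences were 3.96 ± 0.57 and 4.05 ± 0.54 (limma adjusted p = 0.0215 and 0.0192). These genes are near-identical copies, so their spots give 1 measurement rather than 2 independent ones. CRS5, the other metallothionein, had values of 4.07, 4.44 and 4.01 against 1.04 and 2.10 (no m array 1), with a difference of 2.60 ± 0.46 that did not pass (limma adjusted p = 0.0523). Of the 20 genes tested of the copper and zinc list, 2 were higher and 0 lower, and the list's median lay within 0.02 of that of all genes. CRS5 joined the higher genes in the reduced fit, where COT1 and ZRT3, vacuolar zinc transporters, had differences of -2.30 ± 0.38 and -1.47 ± 0.36 and were lower.

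Among antioxidant genes the test called SRX1, the sulfiredoxin that repairs oxidised peroxiredoxin. It was measured on arrays 2 and 3 of each group, at 3.64 and 4.12 in o-nitrophenol and at -0.50 and 0.12 in m-nitrophenol. The difference was 4.07 ± 0.48, or 16.8-fold (limma adjusted p = 0.0236), and it was the only 1 of the 45 genes tested of the oxidative stress, thioredoxin and glutathione list to pass. The median of that list was 0.61 above that of all genes. By the reduced fit 17 of the 45 were higher and 1, GTO3, was lower. CTT1, the cytosolic catalase, had ratios of 4.86, 3.93 and 3.73 in o-nitrophenol and of 1.92, -0.94 and -1.07 in m-nitrophenol, a difference of 4.20 ± 0.83 over all arrays (limma adjusted p = 0.0523) and of 4.84 ± 0.31 in the reduced fit, where it passed. GPX2, a glutathione peroxidase, was at 5.58 and 4.81 on o arrays 2 and 3 but at 0.23 on o array 1, against 0.52, -1.12 and -0.71 on the m arrays. TRR1, the cytosolic thioredoxin reductase, showed the same layout, with 2.78 and 1.96 on o arrays 2 and 3, -0.41 on o array 1, and -0.62, -0.96 and -0.96 on the m arrays. For both genes o array 1 lay near the m arrays, and both passed in the reduced fit, with differences of 6.11 ± 0.42 and 3.33 ± 0.36. TRX2, a thioredoxin, and GTT2, a glutathione transferase, had values above 0 on every array that measured them, and their differences over all arrays were 1.56 ± 0.73 and 1.21 ± 0.62, which did not pass (limma adjusted p = 0.302 and 0.345). Both passed in the reduced fit, at 2.53 ± 0.53 and 1.89 ± 0.33 (limma adjusted p = 0.0137 and 0.00664).

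A pair of chaperone genes that act on misfolded proteins were higher in o-nitrophenol. HSP104, the disaggregase that pulls proteins out of aggregates, was at 4.40, 4.29 and 3.35 on the o arrays and at 1.46, 1.61 and 1.11 on the m arrays, a difference of 2.62 ± 0.38 or 6.16-fold (limma adjusted p = 0.0215). CUR1, which sorts misfolded proteins to the nucleus, was at 1.12, 2.42 and 2.02 against -0.58, -0.52 and -0.12, a difference of 2.26 ± 0.40 (limma adjusted p = 0.0394). HSP104 was above its level before treatment on all 6 arrays, whereas CUR1 was above it on the o arrays and below it on the m arrays. Of 33 genes tested of the heat shock and chaperone list these 2 were higher and 0 lower, and the list's median was 0.85 above that of all genes. The list's medians did not overlap between the groups: relative to all genes of the array they were 0.46, 1.82 and 1.6 on the o arrays and 0.18, 0.30 and 0.14 on the m arrays. Of the 33 members, o array 1 measured 30 and m array 1 measured 22. The reduced fit had 12 members higher and 1 lower. Among those 12 were BTN2, the relative of CUR1, at 3.57 ± 0.31, the Hsp40 gene APJ1 at 2.65 ± 0.37, and the inducible Hsp70 gene SSA4 at 2.16 ± 0.33. The other inducible Hsp70 gene of that pair, SSA3, had a difference of -1.26 ± 0.33 and was the 1 lower member. The small heat shock genes HSP12 and HSP26 were high in both isomers. HSP12 was at 7.17, 5.40 and 4.66 in o-nitrophenol and at 2.61, 3.63 and 3.99 in m-nitrophenol, with a difference of 2.34 ± 0.84 (limma adjusted p = 0.193). HSP26 was at 8.41, 5.25 and 5.25 against 3.36, 4.70 and 4.23, with a difference of 2.20 ± 1.63 (limma adjusted p = 0.507). Their differences were smaller in the reduced fit, where HSP12 passed at 1.22 ± 0.37 (limma adjusted p = 0.0484) and HSP26 did not at 0.78 ± 0.33 (limma adjusted p = 0.122).

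The Msn2 and Msn4 list showed the same direction. Of its 38 genes tested, 2 were higher and 0 lower, HSP30 and PHM8, and its median was 1.20 above that of all genes. HSP30 stood apart from the list on the m arrays, at -1.65, -2.53 and -2.0 where the list's medians were 1.66, 1.45 and 1.25. Whether Msn2 and Msn4 act on HSP30 here was not tested. Relative to each array's median over all genes, the list stood at 3.45, 2.90 and 2.31 on the o arrays and at 1.75, 1.41 and 1.14 on the m arrays, so the list was above 0 in both isomers and its o and m medians did not overlap. Of its 38 genes, o array 1 measured 32 and m array 1 measured 27. 22 of the 38 had o arrays wholly above their m arrays and 4 wholly below, against 14.1% and 24.4% of all genes. In the reduced fit 14 were higher, among them ALD2 and ALD3, stress-induced aldehyde dehydrogenases, at 2.95 ± 0.31 and 2.93 ± 0.34. GRE1, a stress-induced hydrophilin, was the 1 lower member, with values of -0.31 and 0.53 on o arrays 2 and 3 and of 3.22 and 2.93 on m arrays 2 and 3.

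Further genes higher in o-nitrophenol belonged to signalling, ion transport and metabolism. PMC1, the calcium pump of the vacuole, was at 2.80, 2.73 and 3.23 against 0.54, -0.25 and 0.68, a difference of 2.60 ± 0.37 (limma adjusted p = 0.0215). It was the 1 higher gene among 15 tested of the calcium and calcineurin list, whose median was -0.30 relative to all genes, and in the reduced fit CMK1, MID1 and YVC1 were lower. RGS2, a negative regulator of glucose signalling through Gpa2, was at 2.58, 2.75 and 3.48 against 0.09 and 0.05 (no m array 1). INM1, an inositol monophosphatase, was at 2.01, 2.63 and 3.00 against -0.54, -0.07 and 0.02. Both were thus near the level before treatment in m-nitrophenol, and their differences were 2.87 ± 0.44 and 2.74 ± 0.38 (limma adjusted p = 0.0394 and 0.0215). PHM8, a lysophosphatidic acid phosphatase also known as a nucleotidase, was above 0 in both isomers, at 3.54 and 3.49 on o arrays 2 and 3 and at 1.16, 1.53 and 1.27 on the m arrays. QCR6, a subunit of respiratory complex III, was above 0 on every o array (1.26, 1.04 and 1.96) and below it on every m array (-1.12, -0.74 and -0.78). RIE1, BSC5 and YML131W were higher by 3.55 ± 0.54, 2.69 ± 0.39 and 2.88 ± 0.41, and YML131W, which has no standard name, was named after its values were seen.

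**Figure D2:**
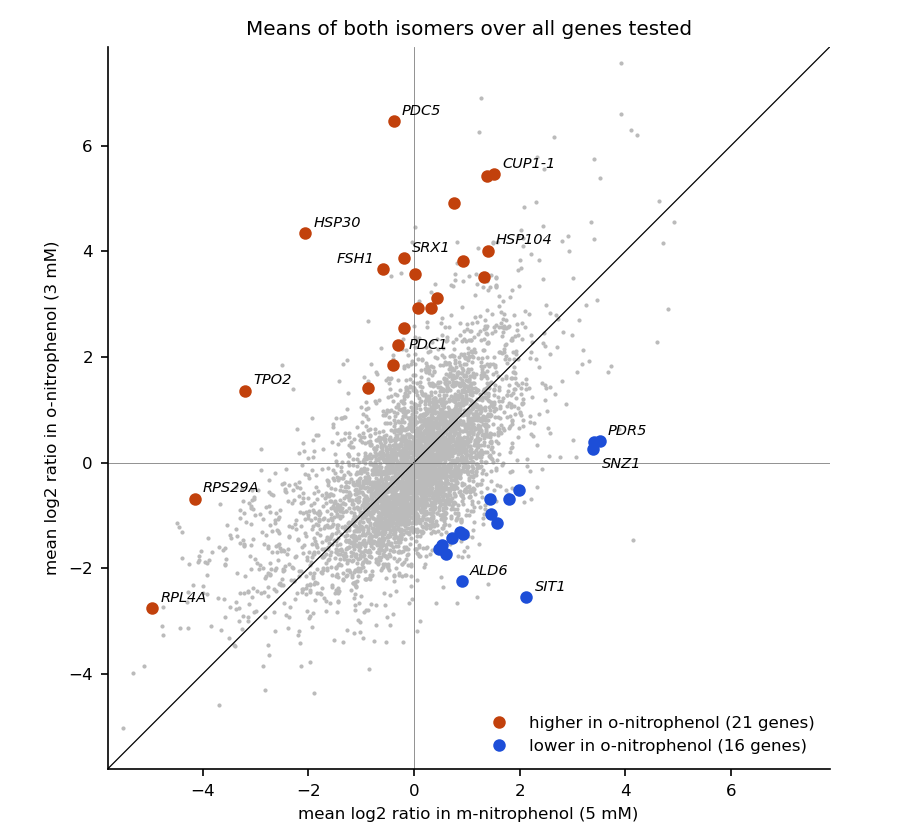
Mean log2 ratio of each of the 5096 genes tested in m-nitrophenol (x axis) and o-nitrophenol (y axis), with the line of equal means; orange marks the 21 genes higher and blue the 16 genes lower in o-nitrophenol. RPS29A and RPL4A lie left of 0 and above the line, since both means were below 0 and the m mean was the lower one.

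Genes for cytosolic ribosomal proteins had the highest median difference of the 41 gene lists. On arrays 2 and 3 they were further below their level before treatment in m-nitrophenol than in o-nitrophenol, and on the arrays numbered 1 the order was the opposite. The medians of the 122 genes tested were -0.05 and -0.67 on o arrays 2 and 3 and -3.09 and -4.25 on m arrays 2 and 3. On array 1 they were -2.40 in o-nitrophenol, over 116 genes, and -1.34 in m-nitrophenol, over 101 genes. The list's medians therefore overlapped, and the order of the isomers turned on the arrays numbered 1.

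The test called 2 ribosomal protein genes higher and 0 lower. RPS29A was at -1.57, 0.13 and -0.61 in o-nitrophenol and at -4.01 and -4.30 in m-nitrophenol (no m array 1), a difference of 3.47 ± 0.59 (limma adjusted p = 0.0394). RPL4A was at -2.45, -2.57 and -3.26 against -4.68, -5.52 and -4.70, a difference of 2.20 ± 0.39 (limma adjusted p = 0.0394). In both genes the groups did not overlap, and RPL4A was far below 0 in both isomers. Each has a close paralogue, RPS29B and RPL4B, and binding of the paralogue's RNA to these spots was not tested. The list's median difference was 1.94 above that of all genes, and 120 of its 122 genes lay above the median of all genes. In the reduced fit 108 of the 122 were higher (against 9.11% of all genes) and 0 lower, and the list's relative median was 3.23. RPL8B, for example, was at -0.38 and -0.87 on o arrays 2 and 3 and at -6.19 and -5.55 on m arrays 2 and 3, yet at -2.70 on o array 1 and -1.43 on m array 1.

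**Figure D3:**
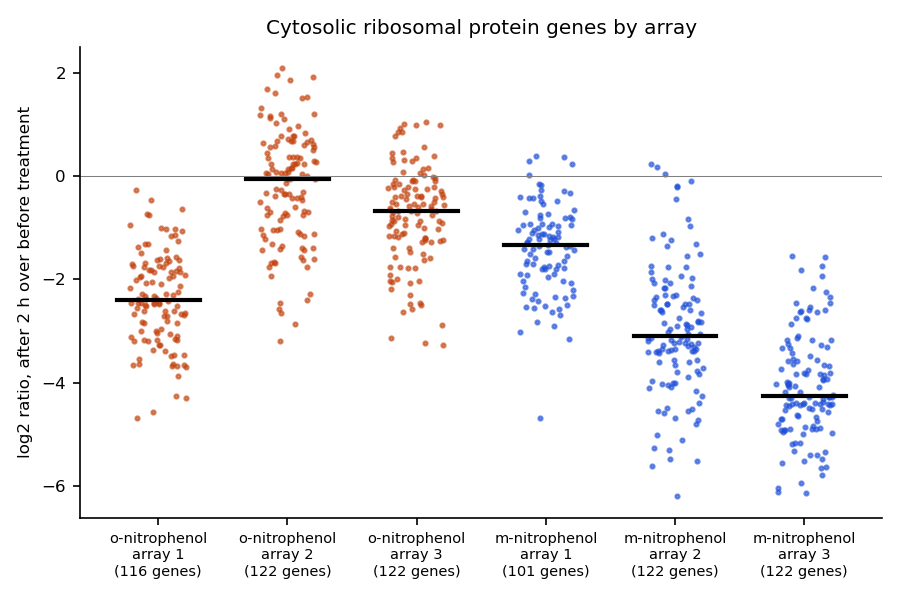
Log2 ratio (y axis, after 2 h over before treatment) of each cytosolic ribosomal protein gene on each array, 1 point per gene, with the median as a black bar. The medians of o arrays 2 and 3 (-0.05 and -0.67) lie above those of m arrays 2 and 3 (-3.09 and -4.25), and the order is the opposite between the arrays numbered 1 (-2.40 and -1.34).

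Other lists of the protein synthesis machinery had medians nearer that of all genes. Ribosome biogenesis genes, which build ribosomal subunits, had a median of 0.17 relative to all genes, with 0 of 63 tested called; in the reduced fit there were 8 higher, HAS1 and NOP2 among them, and 3 lower, LOC1, UTP10 and SSF2. The relative median turned to -0.44 over genes with values on all 6 arrays, as did that of the polymerase genes, to -0.77. PNO1, an rRNA processing factor that is no member of that list, was among the 16 lower genes: it was at -2.27, -1.47 and -1.45 in o-nitrophenol and at 0.52 and 0.70 in m-nitrophenol. Genes for RNA polymerase I and III had a relative median of 0.09 and 0 of 20 called, and RPA49 and RPA43, subunits of polymerase I, had differences of 2.01 ± 0.49 and 2.11 ± 0.56 that did not pass (limma adjusted p = 0.0882 and 0.117). The reduced fit called 4 polymerase genes higher, these 2 included, and 0 lower. The polymerase median also turned sign without o array 2 or m array 2. Aminoacyl-tRNA synthetase genes had a relative median of 0.50 with 0 of 18 called, translation factor genes one of -0.20 with 0 of 37 called, and mitochondrial ribosomal protein genes one of -0.44 with 0 of 69 called. Counts in the reduced fit were 3 higher and 1 lower, 1 higher and 1 lower, and 0 higher and 10 lower in the same order. The 10 lower mitochondrial genes were 14.5% of their list, near the 11.5% of all genes. Median differences of the cytosolic and mitochondrial ribosomal protein genes lay on opposite sides of that of all genes. Both signs held in all 19 alternatives run for lists, which reuse most of the same arrays and are no independent support. Medians of both lists overlapped between the groups, and the cytosolic order turned on the arrays numbered 1.

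Iron uptake genes had the lowest median difference of the 41 lists. SIT1, a transporter that takes up iron bound to siderophores, had ratios of -1.53, -3.24 and -2.89 on the o arrays and of 2.12 and 2.14 on m arrays 2 and 3. It was below its level before treatment in o-nitrophenol and above it in m-nitrophenol, and the difference of -4.68 ± 0.52 made the ratio 25.6-fold higher in m-nitrophenol (limma adjusted p = 0.0106). ARN1, a second siderophore transporter, was at -0.12, -0.55 and -0.89 in o-nitrophenol and at 1.47, 2.24 and 2.25 in m-nitrophenol, a difference of -2.51 ± 0.42 (limma adjusted p = 0.0387). Again no o array was above 0 and no m array with a value was below it.

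Of 32 genes tested of the iron uptake and Aft1 list, 0 were higher and 2 lower, and 17 had o arrays wholly below their m arrays, against 24.4% of all genes. The list's median difference was -1.14 relative to all genes. It stayed between -1.62 and -0.73 in all 19 alternatives, which reuse most of the same arrays and are no independent support. Its medians on the o arrays were 0.19, -0.67 and -0.74 relative to all genes of the array, and 0.31, 0.70 and 0.46 on the m arrays, so o array 1 lay near the m arrays. Of the 32 genes, o array 1 measured 27 and m array 1 measured 14. In the reduced fit 19 of the 32 were lower (against 11.5% of all genes) and 3 higher.

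Among the lower genes of that fit was FET3. This gene, which encodes the multicopper oxidase of the high-affinity system, had a difference of -3.72 ± 0.36 there, and -2.61 ± 0.65 over all arrays (limma adjusted p = 0.0793). TIS11, also named CTH2, which degrades messages of iron-consuming proteins, had one of -4.30 ± 0.38. HMX1, the heme oxygenase that frees iron from heme, was at -2.20 and -0.74 on o arrays 2 and 3 and at 4.28 and 4.01 on m arrays 2 and 3, with no value on either array 1. Its difference of -5.62 was the largest on the lower side of this list, though with an SE of 1.49 it did not pass over all arrays (limma adjusted p = 0.108). The 3 higher genes were ISU1 and ISU2, which encode the scaffold for iron-sulfur cluster assembly, and CTH1, the relative of TIS11. ISU2 was at 1.25, 4.15 and 4.29 in o-nitrophenol and at 0.21 and 0.43 in m-nitrophenol, and CTH1 was at -0.45, 1.11 and 1.00 against -0.34, -1.94 and -1.41.

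**Figure D4:**
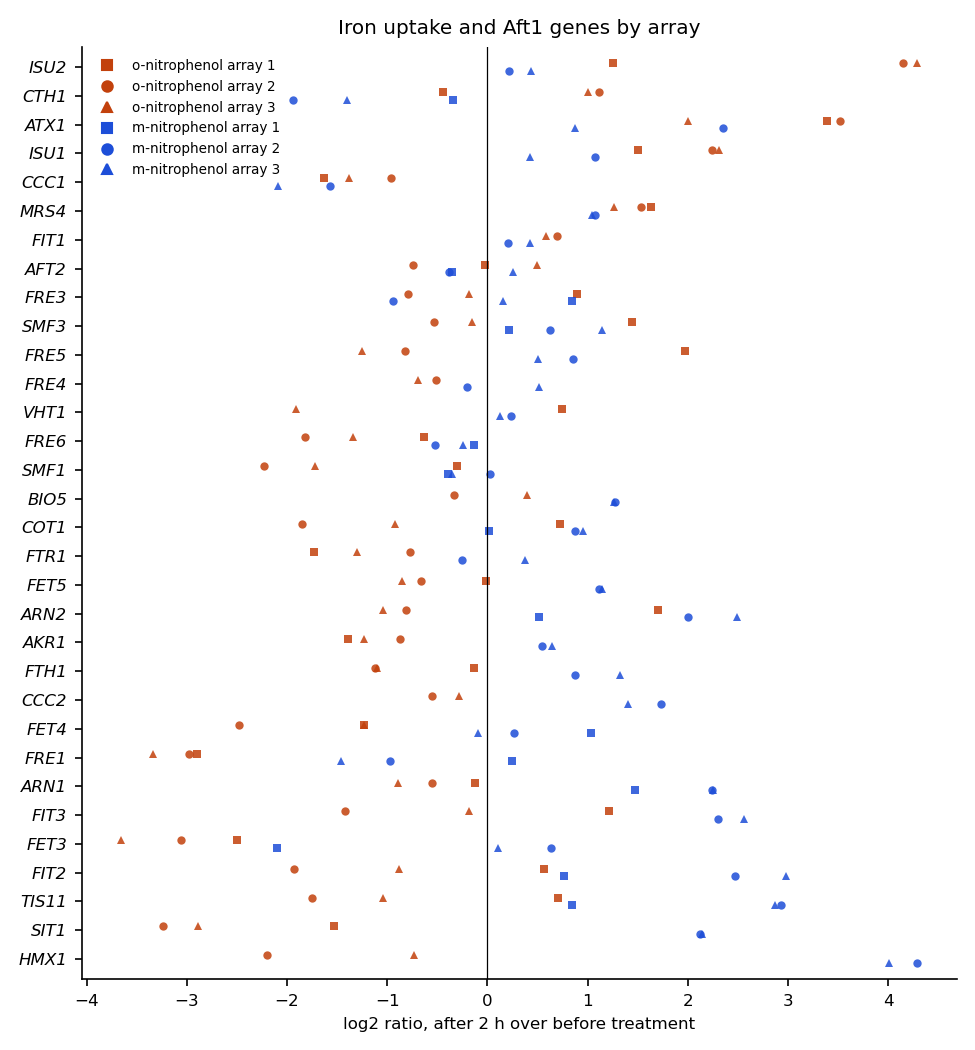
Log2 ratio (x axis, after 2 h over before treatment) of the 32 genes tested of the iron uptake and Aft1 list, ordered by their difference between isomers, with the replicate number as the symbol. In HMX1, SIT1 and ARN1 all orange points (o-nitrophenol) are below 0 and all blue points (m-nitrophenol) above it, while in ISU2 the orange points lie above the blue ones.

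Drug efflux genes held a call in each direction. PDR5, the main ATP-driven multidrug pump of the plasma membrane, was at -1.04, 1.07 and 1.18 in o-nitrophenol and at 3.77, 3.10 and 3.67 in m-nitrophenol. All m arrays lay above all o arrays, by 3.11 ± 0.57 on the log2 scale or 8.6-fold (limma adjusted p = 0.0433). SNQ2, a second pump, was at -0.83, 0.48 and -0.97 against 0.84, 1.80 and 2.24, with a difference of -2.07 ± 1.12 that did not pass (limma adjusted p = 0.364). YOR1 was above 0 on all 6 arrays, with a difference of -1.09 ± 1.04, and PDR10 was at 1.26 and 0.68 on o arrays 2 and 3 and at 2.58 and 2.47 on m arrays 2 and 3, a difference of -1.56 ± 0.51 (limma adjusted p = 0.615 and 0.187). PDR10 passed in the reduced fit, where its difference was the same and its SE was 0.39, and YOR1 did not. Of 35 genes tested of the multidrug list, TPO2 was the 1 higher and PDR5 the 1 lower, and the list's median lay within 0.01 of that of all genes. The reduced fit called 4 higher (11.4%, against 9.11% of all genes), namely DTR1 and the polyamine exporter genes TPO2, TPO3 and TPO4. It called 5 lower (14.3%, against 11.5%), so both shares were near those of all genes. Among the 5 were PDR5, SNQ2, ICT1 at -1.42 ± 0.33, and VMR1, a vacuolar pump of the same superfamily as PDR5, at -3.75 ± 0.35.

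A pair of genes of the pentose phosphate and NADPH list were lower in o-nitrophenol. ALD6, the cytosolic aldehyde dehydrogenase that makes acetate and NADPH, was at -0.84, -2.58 and -3.34 in o-nitrophenol and at 0.37, 0.94 and 1.40 in m-nitrophenol, a difference of -3.15 ± 0.60 (limma adjusted p = 0.0455). SOL3, the 6-phosphogluconolactonase of the pentose phosphate pathway, was at -1.88, -1.17 and -1.86 against 1.01, 0.15 and 0.27, a difference of -2.11 ± 0.40 (limma adjusted p = 0.0443). Both genes were below 0 on all o arrays and above 0 on all m arrays. They were the 2 lower of the list's 18 genes tested, with 0 higher. Its relative median was -0.11 and ran from -1.33 to 0.25 over the alternatives, above 0 or below it depending on the arrays left out. Lower genes in the reduced fit were 4, with GND1 (6-phosphogluconate dehydrogenase) at -1.54 ± 0.30 and TKL1 (transketolase) at -1.56 ± 0.37, and RKI1 (ribose-5-phosphate isomerase) was the 1 higher gene at 1.66 ± 0.42. ALD6 was also the 1 called gene among 17 tested of the aryl-alcohol and aldehyde dehydrogenase list, whose relative median was 0.62, and in the reduced fit there were 5 higher, ALD2, ALD3, AAD4 and AAD15 among them, and 2 lower, ALD6 and ALD4.

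SNZ1, which makes vitamin B6, stayed near its level before treatment in o-nitrophenol, at 0.40, 0.36 and 0.01, and was at 3.95, 2.36 and 3.88 in m-nitrophenol. The difference was -3.14 ± 0.58, or 8.8-fold higher in m-nitrophenol (limma adjusted p = 0.0441). Its partner SNO1 had values of 0.74 and 0.53 on o arrays 2 and 3 and of 4.12 and 3.63 on m arrays 2 and 3. It had no value on either array 1, so its difference of -3.24 was the same in both fits. With the wider spread over all arrays SNO1 did not pass (SE 0.98, limma adjusted p = 0.145), and in the reduced fit it did (SE 0.34). Of 27 genes tested of the thiamine, pyridoxine and biotin list, 0 were higher and 1 lower, with a relative median of 0.45. In the reduced fit there were 3 higher and 5 lower (11.1% and 18.5%, against 9.11% and 11.5% of all genes). THI4, a thiamine synthesis gene and 1 of the 3, was at 9.94, 5.93 and 4.83 in o-nitrophenol and at -0.48, 2.01 and 2.26 in m-nitrophenol. ABZ1, which acts in the synthesis of p-aminobenzoate, a folate precursor, was at -1.02, -1.40 and -1.63 in o-nitrophenol and at 1.00 and 0.83 on m arrays 2 and 3.

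The remaining lower genes had varied roles. HPA2, a histone acetyltransferase, was at 0.57 and 0.22 on o arrays 2 and 3 and at 3.74 and 3.09 on m arrays 2 and 3. COX23, an assembly factor of cytochrome oxidase, was at -1.19 and -1.11 against 1.65 and 1.49 on the same arrays. DAS1 (an F-box protein), YIP3 (which binds Rab GTPases) and SBE2 (needed for the cell wall of the growing bud) had differences of -2.43 ± 0.44, -2.19 ± 0.39 and -2.14 ± 0.36, and each lacked m array 1. The open reading frames YCL019W, YCL020W and YOR385W, with values on all 6 arrays, had differences of -2.50 ± 0.40, -2.13 ± 0.38 and -2.10 ± 0.32. HPA2, COX23 and these 3 reading frames lay outside the rule for named genes and were named after their values were seen. YCL019W and YCL020W, neighbours by name, ran in parallel on the m arrays, at 1.15, 2.35 and 1.91 and at 0.86, 2.02 and 1.42. Whether their spots read 1 RNA, or RNA of related sequences elsewhere, was not tested, so they may not be 2 independent measurements.

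Lists of amino acid and carbon metabolism held few or no calls over all arrays, and their counts in the reduced fit are to be read against 9.11% of all genes higher and 11.5% lower. Amino acid synthesis genes under Gcn4 had a relative median of 0.88, and 46 of 52 tested lay above the median of all genes, but 0 passed the test. The reduced fit had 10 higher and 1 lower. GLN1, glutamine synthetase, was at 0.15, 2.99 and 2.94 in o-nitrophenol and at -0.30, -0.45 and -0.45 in m-nitrophenol, and ARO3, the entry to aromatic amino acid synthesis, was at 1.72, 3.12 and 2.84 against 0.59, 0.05 and 0.09. In both genes o arrays 2 and 3 agreed and o array 1 lay lower. Sulfur amino acid genes turned sign between the fits, from a relative median of 0.81 over all arrays to -0.21 in the reduced fit, with 0 of 34 called at first and then 5 higher and 7 lower. MET6, methionine synthase, was at 5.33 on o array 1 but at -0.94 and -1.03 on o arrays 2 and 3, against 3.03, 2.82 and 2.78 on the m arrays. STR3, a cystathionine beta-lyase, was high throughout, at 9.30, 6.65 and 6.76 in o-nitrophenol and at 3.77 and 4.08 in m-nitrophenol, and its difference of 3.64 ± 0.82 did not pass (limma adjusted p = 0.0751) but did in the reduced fit, at 2.78 ± 0.45.

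In carbon metabolism, PDC1 and PDC5 were the only 2 called of 32 genes tested of the glycolysis, ethanol and glycerol list and of 12 tested of the aromatic breakdown and fusel alcohol list, with 0 lower in either. Their relative medians were 0.41 and 0.77. Their counts in the reduced fit were 7 higher and 2 lower, and 3 higher and 1 lower, with ARO9, an aromatic aminotransferase, joining at 2.23 ± 0.34. PCK1, the first committed step of gluconeogenesis, was lower in that fit at -2.02 ± 0.32. HXT2, a high-affinity glucose transporter, was at 0.56, -4.36 and -4.20 in o-nitrophenol and at 1.22, 0.73 and 0.47 in m-nitrophenol. Over all arrays its difference was -3.47 ± 1.08 (limma adjusted p = 0.133), and it passed in the reduced fit, at -4.88 ± 0.33. The hexose transport list had 0 of 21 called and a relative median of 0.48, against 0.14 in the reduced fit, with 0 higher and 3 lower (14.3%, near the share of all genes).

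The respiratory chain list had QCR6 as its 1 higher gene of 43 tested, 0 lower and a relative median of 0.74, and in the reduced fit there were 9 higher and 2 lower. CYC7, the minor isoform of cytochrome c, was at 6.69, 3.82 and 2.85 in o-nitrophenol and at 0.60, 0.26 and -0.80 in m-nitrophenol; its groups did not overlap and its difference of 4.43 ± 1.11 did not pass over all arrays (limma adjusted p = 0.0793) but did in the reduced fit, at 3.60 ± 0.47. TCA cycle genes had 0 of 24 called and a relative median of 0.39, and trehalose and glycogen genes 0 of 22 and 0.34. The latter turned to -0.21 in the reduced fit, where there were 1 higher and 4 lower, and TCA cycle genes then had 1 higher and 3 lower (4.17% and 12.5%), the latter near the share of all genes. The diauxic shift list had SNZ1 as its 1 lower gene of 29 and a relative median of -0.13, with 6 higher and 8 lower in the reduced fit.

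Lists of secretory and surface genes had medians below that of all genes. Of 38 tested genes for folding in the endoplasmic reticulum, 0 passed, the relative median was -0.48, and the medians did not overlap between groups: relative to all genes of the array they were -0.40, -0.13 and -0.20 on the o arrays and -0.04, 0.43 and 0.28 on the m arrays. Of the 38, o array 1 measured 33 and m array 1 measured 21. The reduced fit had 8 lower, with SIL1 and JEM1, partners of the Hsp70 Kar2, at -3.09 ± 0.34 and -2.41 ± 0.36, and 1 higher, HAC1, the transcription factor of the unfolded protein response, at 1.58 ± 0.39. Cell wall genes had 0 of 50 called and a relative median of -0.11, and in the reduced fit there were 17 lower and 3 higher. CRH1 and UTR2, which link chitin to glucan, were at -3.86 ± 0.35 and -2.47 ± 0.37 in that fit. Pheromone response and mating genes had 0 of 23 called, a relative median of -0.72 and non-overlapping medians. Of the 23, o array 1 measured 16 and m array 1 measured 11. In the reduced fit there were 8 lower and 1 higher. STE3 and SAG1, the a-factor receptor and the agglutinin of alpha cells, had differences over all arrays of -3.07 ± 0.67 and -2.63 ± 0.51 that did not pass (limma adjusted p = 0.0582 and 0.0523) but did in the reduced fit.

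Lipid, cycle and transport lists gave few calls. Ergosterol and mevalonate genes had a relative median of -0.61 with 0 of 31 called, fatty acid and phospholipid genes -0.34 with 0 of 36, and peroxisome and beta-oxidation genes -0.16 with 0 of 23. They had 1 higher and 5 lower, 0 and 8, and 2 and 6 in the reduced fit. Within the sterol genes UPC2, the activator of sterol uptake and synthesis, was the 1 higher gene in that fit, at 2.38 ± 0.32. The 5 lower genes (16.1%, against 11.5% of all genes) included ERG13 at -1.70 ± 0.37 and HMG1 at -1.70 ± 0.34. Over all arrays 11 of the 31 sterol genes lay above the median difference of all genes. Phosphate response genes had PHM8 as the 1 higher of 26 tested against a relative median of -0.61, and then 2 higher and 4 lower. Cyclin and cell cycle genes (relative median -0.29, 0 of 29 called), DNA replication and histone genes (-0.18, 0 of 36) and nitrogen catabolism genes (-0.08, 0 of 35) had 0 higher and 4 lower, 0 and 2, and 2 and 5 in the reduced fit. Purine and pyrimidine genes (-0.36, 0 of 29) then had 1 and 4, autophagy genes (-0.18, 0 of 30) 1 and 3, meiosis genes (0.41, 0 of 21) 2 and 1, and proteasome genes (0.31, 0 of 46) 4 and 1. Over the 41 lists, 17 had at least 1 called member and 24 had none, and the plot of list medians gives the 6 arrays of each. Relative medians also did not overlap between the groups for the purine and pyrimidine, glycolysis, phosphate, cyclin, meiosis (no m array 1) and iron lists. Lack of overlap was thus not particular to the heat shock, Msn2 and Msn4, endoplasmic reticulum and mating lists. Relative medians of 16 lists turned sign in at least 1 alternative: ribosome biogenesis, RNA polymerase, sulfur, nitrogen, hexose, pentose phosphate, trehalose and glycogen, autophagy, nitroreductase-like, aldehyde dehydrogenase, multidrug, copper and zinc, vitamin, peroxisome, cell wall and diauxic shift. That of the diauxic list ran from -0.70 to 1.94.

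**Figure D5:**
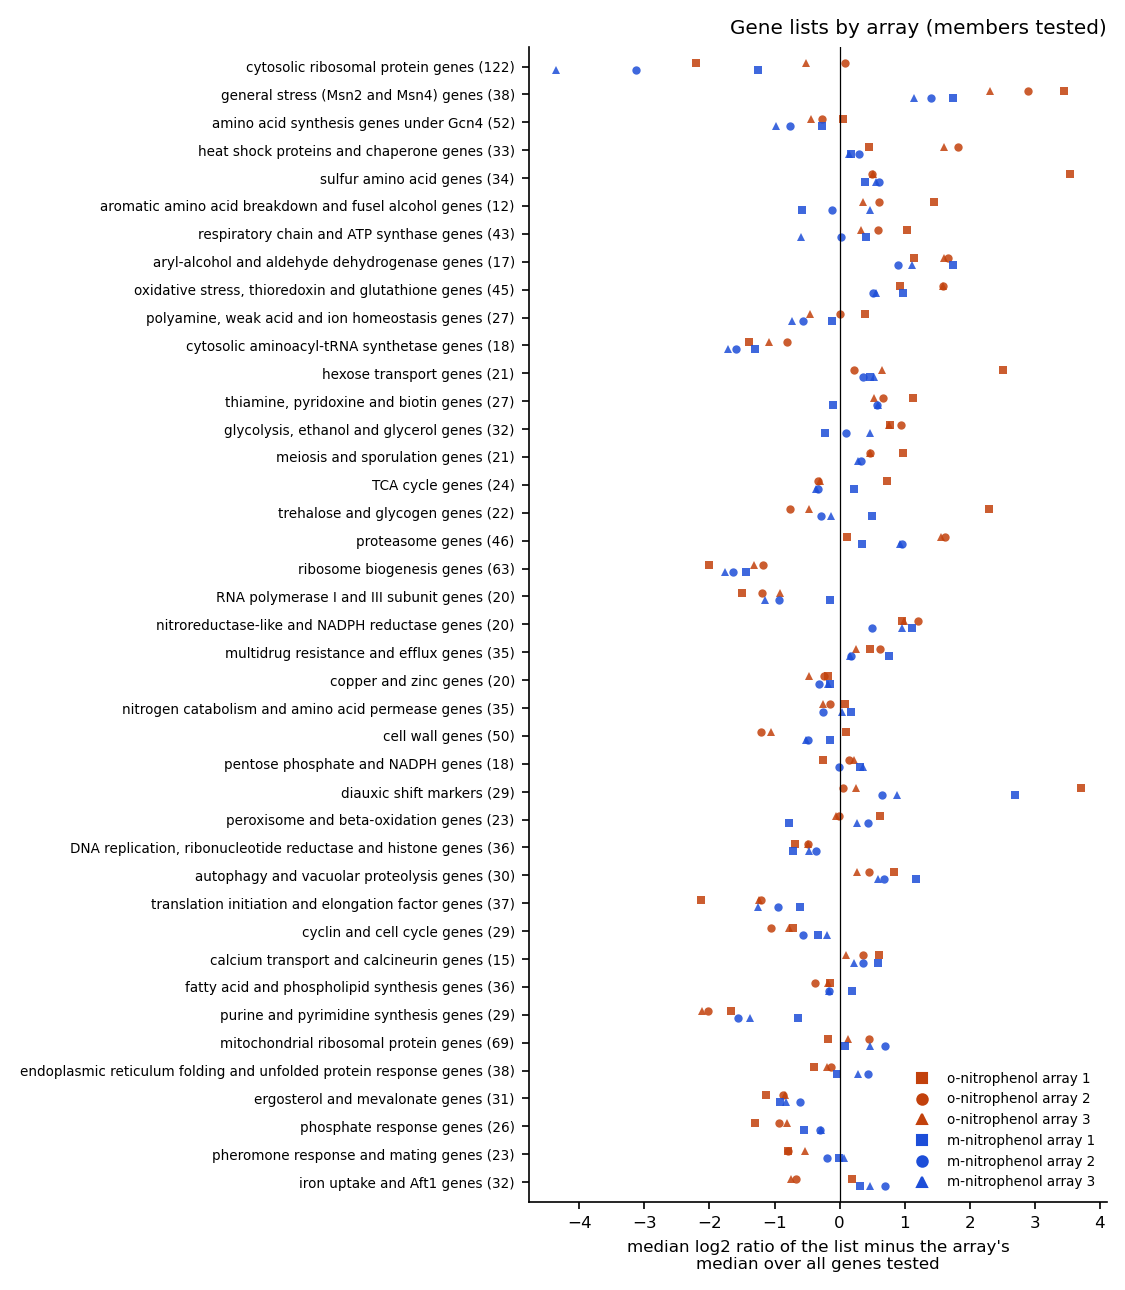
Median log2 ratio of each of the 41 gene lists on each array, less the median of all genes tested on that array (x axis), with lists ordered by their median difference and the number of members tested in brackets. The ribosomal protein list heads the plot (difference 1.94 relative to all genes) and the iron list closes it (-1.14), and squares, the arrays numbered 1, often lie away from the circles and triangles of their colour.

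No gene of the nitroreductase-like and NADPH reductase list was called over all arrays. Of 20 tested 0 passed, with a relative median of 0.09, and the reduced fit had 1 higher and 0 lower. That 1 was OYE3, an old yellow enzyme, at 1.32, 2.61 and 1.83 in o-nitrophenol and at -0.28 and 0.19 in m-nitrophenol. Its relative OYE2 had a difference of -0.52 ± 0.78, with a 95% interval of -2.25 to 1.21. FRM2, a nitroreductase-like gene, was within 0.2 log2 units of its level before treatment on all 5 arrays that measured it, and its difference was -0.10 ± 0.40 with an interval of -1.0 to 0.80. YHB1, the flavohemoglobin that removes nitric oxide, was far below 0 on all 6 arrays, at -2.75, -2.71 and -3.35 in o-nitrophenol and at -2.45, -3.88 and -4.44 in m-nitrophenol. GRE2, a methylglyoxal reductase, was at 4.17, 5.23 and 4.41 in m-nitrophenol and at 3.98 and 3.88 on o arrays 2 and 3, but at -1.01 on o array 1. RPN4, the regulator of proteasome genes, was above 0 on all 5 arrays with a value, and its difference was 0.94 ± 0.55. None of YHB1, GRE2 and RPN4 passed over all arrays (limma adjusted p = 0.615, 0.372 and 0.408), and of these RPN4 passed in the reduced fit, at 1.22 ± 0.33 (limma adjusted p = 0.0327). HBN1 and PMA1 were not tested.

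At a median SE of 0.517 for a difference, the median 95% interval spanned 1.17 log2 units on each side. In data simulated for this comparison over the same 5096 genes, 2% of genes changed by 1 log2 unit were called, 34% at 2, 92% at 3 and 98% at 4, so differences under about 4-fold were mostly not detectable with these arrays.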

How the data were processed

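The values used are log2 ratios that the authors deposited for each spot, normalized with LOWESS on spots of flag 0, per the labels. Background handling was not given in the sources used here. That the scale is log2 follows from 13 values at exactly the log2 of 0.01. The direction, treated over before treatment, is likely from the order of channels and dyes in the labels but is not stated with the values. Ratios hold no levels, so signal over background, saturation and markers of the strain could not be examined, and the number of arrays limits the precision. Of 6912 probes, 5513 had 1 gene symbol, 1399 none and 0 several in an older annotation; 5360 of 5365 genes matched RefSeq, and probes of a gene were averaged (99 genes).

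Each array's high- and low-power scans were averaged, or the 1 scan with a value was taken, since a scan is no replicate. limma 3.58.1 in R 4.3.3 fitted group means to all 9 arrays for genes with values on at least 2 arrays of each group; 269 genes were not tested. Spread was shared by the groups (6 residual and 4.406 prior degrees of freedom). Tested on simulated data with equal spread and independent arrays, which the real arrays did not share, the fit called 4 of 4896 unchanged genes. Named genes were the 12 largest differences each way among called standard-named genes with 3 o and at least 2 m arrays, the 6 largest with all 6 arrays, up to 4 called members of each of 41 lists (or the 2 largest differences where none was called), and 17 further genes of which 15 were tested; in lists, up to 4 genes each way by p in the fit without the arrays numbered 1 were added after seeing the data. Members and lists were chosen with earlier results of these data known.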

Additional observations from a re-analysis of the deposited data

How the results depend on the processing

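Genes higher and lower in o-nitrophenol numbered 21 and 16. They were 11 and 1 with high-power scans alone, 79 and 67 with low-power scans alone, 127 and 99 with all scans and the array as a random block (correlation 0.888, statmod 1.5.0), 10 and 3 with only the 6 arrays, 501 and 671 with array weights, and 464 and 584 without the 3 arrays numbered 1. With those arrays left out and the rest centred, an alternative added after seeing the data, they were 514 and 442. Quantile normalization gave 29 and 26, centring 30 and 11, genes on all 6 arrays 17 and 9 (fewer genes tested), and no filter, probes tested singly and a 2-fold minimum 21 and 16. With the replicate number as a block they were 99 and 81; deviations of same-numbered o and m arrays correlated at 0.104, 0.215 and 0.061, and o array 3 correlated better with m array 2 (0.102). With p arrays included, 8 of 9 same-numbered pairs were over 0.1 (0.117 to 0.366 for those with a p array), while 12 of 18 others were below 0 (-0.351 to 0.226). Deviations were taken from the mean of a group's 3 arrays. Values below 0 among the others thus follow from same-numbered values above 0 and are no separate sign. The same-numbered values are a hint of pairing from the data, not from the labels, and this did not hold for every o and m pair. Leaving out 1 array gave 2 to 143 higher and 0 to 150 lower genes, with fewer arrays by construction; at 0 lower (without o array 3, m array 2 or m array 3) the cause was not tested, nor was it for the other settings. Centring and quantile normalization moved the median difference of all genes by 0.12. Of the 37 called genes, 31 held when centred, 24 under quantile normalization, 11 with only the 6 arrays and 37 under the replicate block; 0 turned sign where measured. Medians of the sulfur, trehalose and glycogen, multidrug, and copper and zinc lists turned sign without the arrays numbered 1. The planned promoter motif search was not run, as no promoter sequence was at hand.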

Other observations

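Genes outside the lists that differed without the arrays numbered 1, chosen after their values were seen, included 4 of glycine and one-carbon metabolism. GCV1 and GCV2, subunits of the glycine cleavage system, SHM2, the cytosolic serine hydroxymethyltransferase, and MTD1, a methylenetetrahydrofolate dehydrogenase, had differences in that fit of -3.61 ± 0.33, -3.24 ± 0.47, -3.33 ± 0.36 and -3.08 ± 0.35. GCV1 was at -1.86, -2.70 and -3.08 on the o arrays and at 2.14, 0.87 and 0.57 on the m arrays, so its groups did not overlap on any array, and over all arrays its difference was -3.74 ± 0.82 (limma adjusted p = 0.0582). GCV2, SHM2 and MTD1 did not pass over all arrays (limma adjusted p = 0.0539, 0.119 and 0.205). The groups of MTD1 overlapped, and GCV2 had no value on o array 1. HSP31, a chaperone and glyoxalase, and ISA1, an iron-sulfur cluster assembly gene, were higher in the reduced fit, by 3.54 ± 0.56 and 2.72 ± 0.31. Neither passed over all arrays (limma adjusted p = 0.0746 and 0.101).

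The p-nitrophenol means (1.5 mM, 3 arrays) of the 37 genes lay closer to the m-nitrophenol than to the o-nitrophenol mean for 19 of the 21 higher and 15 of the 16 lower genes. PDC5 had a mean of -0.16 in p-nitrophenol, FSH1 -0.43, PDR5 3.64 and SNZ1 3.76. The p-nitrophenol arrays took part in the estimate of the spread, and the 3 doses differ. The share of all genes tested with a p mean closer to m was not computed, so these counts have no background. Across genes, p arrays 2 and 3 also correlated more with m arrays 2 and 3 (r 0.642 to 0.745) than with o arrays 2 and 3 (0.511 to 0.564). The 37 genes were picked for their o and m difference, so the counts do not make them particular to o-nitrophenol.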
